A study of Mus musculus with 16 samples.

Results

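The genes for the proteins of the mitochondrial ribosome were followed in mouse lung across genotype and allergen challenge. They were taken as all array probes whose annotated symbol starts with Mrpl or Mrps followed by a digit, which gave 110 probes of 76 genes among 25697 probes of 16593 named genes. The Mrpl symbols, which name large subunit proteins, accounted for 68 probes of 47 genes, and the Mrps symbols, which name small subunit proteins, for 42 probes of 29 genes. Lung RNA from female C57BL/6N mice, a portion of lung (1/2) per mouse, had been hybridised to 16 Illumina bead arrays, giving 4 groups of 4 mice with no array shared. The untreated wild type and the untreated Prdm11 knockout mice were 22 weeks old. The challenged wild type and the challenged Prdm11 knockout mice were 35 weeks old and had inhaled an ovalbumin (OVA) aerosol of 1% in PBS for 30 min, 3 times. Age and challenge therefore cannot be told apart in any comparison of challenged with untreated mice. The sensitisation protocol stands on the labels of all samples, so the labels do not settle whether the untreated mice had been sensitised. The labels do not say how the Prdm11 allele was made or in which cells it is lost.

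The mitochondrial ribosome translates the few messages encoded by mitochondrial DNA, all of which give subunits of the respiratory chain complexes and the ATP synthase. Its RNA comes from mitochondrial DNA, whereas all of its proteins are encoded in the nucleus, made in the cytosol and imported, so both subunits depend on coordinated output of many nuclear genes. About as many of these proteins are specific to mitochondria as have counterparts in the bacterial ribosome, and tissues rich in mitochondria, such as heart, skeletal muscle and brown fat, hold much of the machinery.

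Values are log2 of the deposited probe intensity, and a difference is on that scale unless a fold is named. Sorted array distributions were nearly identical on the linear scale, with a largest gap in intensity of 4.9 at the same rank and median intensities of 85.4 to 86.5. A probe was tested if it lay above its array's 40th percentile, log2 6.24 to 6.25, on at least 4 of the 16 arrays, and was called at a limma adjusted p under 0.05. The lung markers were bright in every group, the list mean of 7 tested genes being 12.42 ± 0.04 (SD, n = 4) in untreated wild type, 12.36 ± 0.05 in untreated knockout, 11.998 ± 0.155 in challenged wild type and 11.16 ± 0.76 in challenged knockout lungs. Prdm11 had 0 named probes, so the genotype rests on the labels. Replicate 4 of the challenged wild type group stood apart, correlating at 0.676 to 0.842 with the rest, against a lowest value of 0.877 among the other 15 arrays.

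Of the 110 probes, 96 were tested, 59 of 45 large subunit genes and 37 of 27 small subunit genes. The 14 untested probes had log2 values between 4 and 6.60 and reached the 40th percentile on at most 3 arrays. They left Mrpl19, Mrpl32, Mrps27 and Mrps36 without a tested probe. At the edge of the filter, a Mrps25 probe passed with 4 arrays and a mean of 6.07, and a Mrpl48 probe failed with 3 arrays and a mean of 6.10. Of the 96 tested probes, 73 lay above the 40th percentile on all 16 arrays. Where a gene had several tested probes, the brightest stands for it.

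Averaged over the 96 tested probes, the array mean was 7.83 ± 0.06 in untreated wild type and 7.91 ± 0.04 in untreated knockout lungs. It was 7.99 ± 0.24 in challenged wild type and 8.24 ± 0.13 in challenged knockout lungs. Within challenged wild type, the values of replicates 1 to 4 were 8.01, 8.20, 8.08 and 7.65, so that replicate 4 lay below every untreated array and the other 3 lay above all of them. Every challenged knockout array, at 8.06 to 8.35, lay above every untreated array. Replicate 4 of challenged wild type was the lowest of 16 arrays for 46 of the 96 probes, and replicate 3 of challenged knockout the highest for 35. In bulk tissue, fewer cells of a type and less RNA per cell cannot be told apart.

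**Figure D1:**
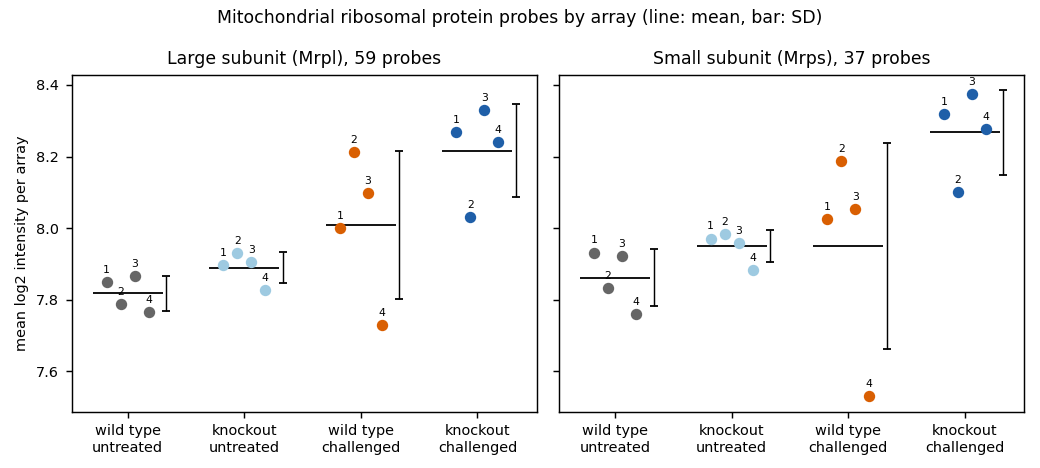
Mean log2 intensity per array of the large subunit probes (left, 59 probes) and the small subunit probes (right, 37 probes), by group; points are arrays numbered by replicate, lines are group means and bars are SD (n = 4). Replicate 4 of challenged wild type sits at 7.73 for the large and 7.53 for the small subunit, below the other 3 challenged wild type arrays, which sit at 7.9997 to 8.21 and at 8.03 to 8.19.

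The first comparison asked what the challenge, with the age that goes with it, did in wild type lungs. Of the 96 probes, 23 rose and 4 fell, where 11.7% of all 17810 tested probes rose and 17.7% fell. By gene, 20 of 72 rose and 3 fell, against 13.4% and 17.4% of all 12648 genes tested. The large subunit supplied 16 of the 23 higher and 2 of the 4 lower probes, the small subunit 7 and 2. Median differences were 0.20 for large subunit probes, -0.04 for small subunit probes and 0.03 for all probes tested. Without replicate 4 of challenged wild type, 38 member probes rose and 3 fell, where 12.7% and 16.9% of all probes did, and the medians were 0.25 for the large and 0.22 for the small subunit. The negative small subunit median of probes thus depended on that array. By gene, with all arrays kept, the medians were 0.25 for the large subunit, 0.10 for the small subunit and 0.05 for all genes tested.

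In knockout lungs the same comparison gave 26 higher probes and 0 lower ones by limma, where 9.1% of all tested probes rose and 7.48% fell. The 26 include a Mrps25 probe that had passed the filter through challenged knockout alone. Member probes with an unadjusted p under 0.05, in either direction, numbered 37 of 96, where 5221 of all 17810 tested probes had one. By gene, 21 of 72 rose, 14 of the large and 7 of the small subunit, where 10.2% of all genes tested rose. The median difference was 0.29 for large and 0.36 for small subunit probes, against -0.05 for all probes tested, and 87.5% of member probes had a positive difference, against 42.8% of all. The subunits therefore had similar medians here, and in wild type they came close without replicate 4 or with array weights (0.25 and 0.23). Without that array, which enters this comparison through the shared estimate of spread alone, 44 probes rose and 0 fell, while 14.5% and 15.997% of all probes did.

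**Figure D2:**
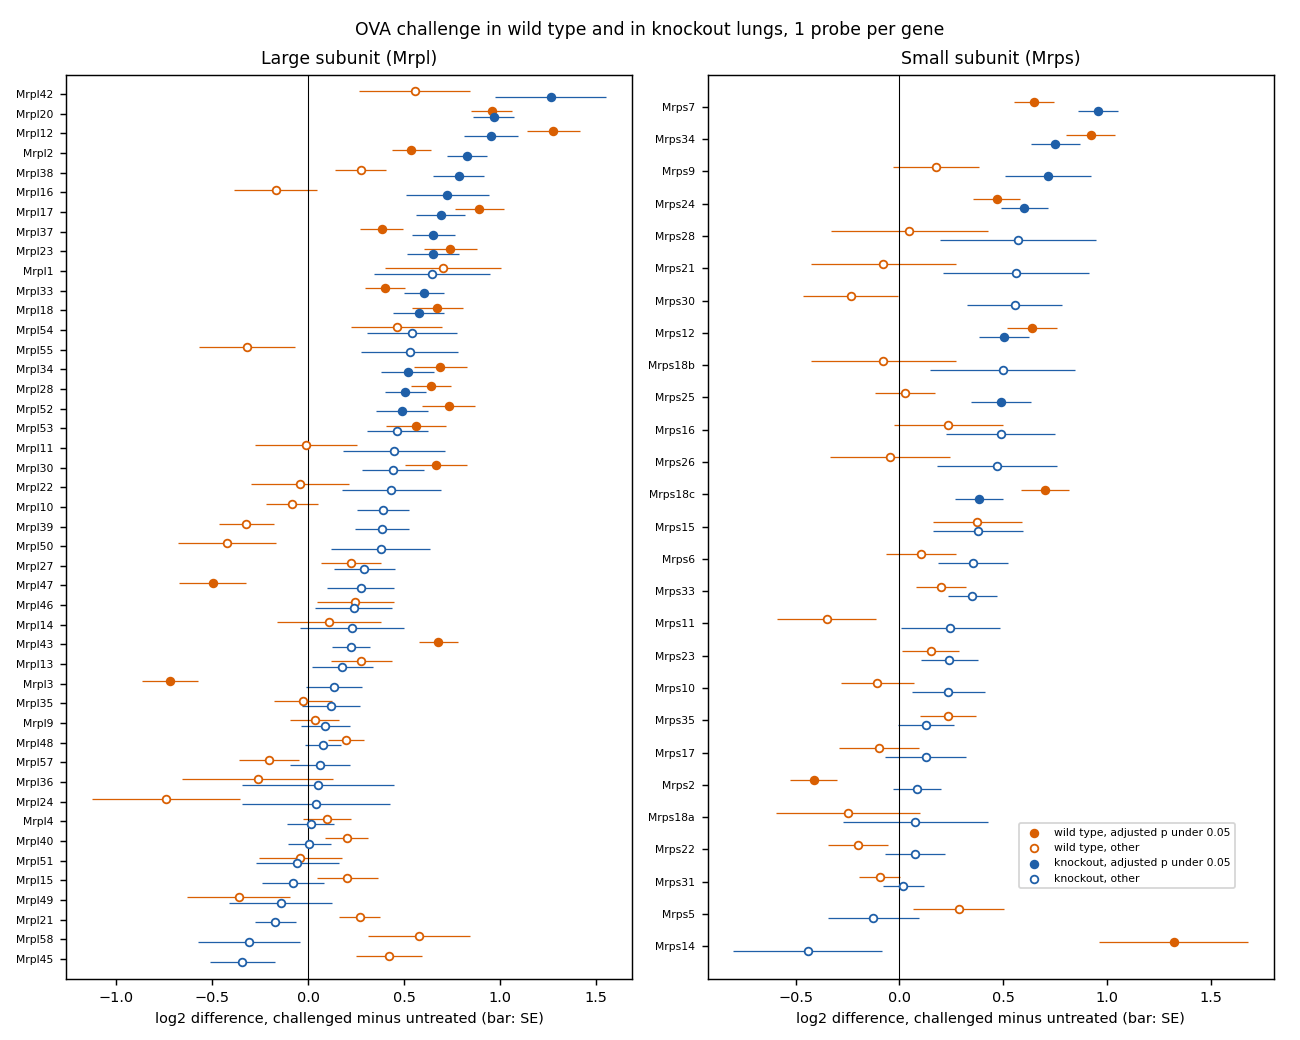
Log2 difference of challenged minus untreated lungs for each tested gene, 1 probe per gene, in wild type (orange) and knockout (blue); bars are SE and filled points have a limma adjusted p under 0.05. Of 72 genes, 40 were positive in both genotypes, 24 were negative in wild type and positive in knockout, 6 were the reverse and 2 were negative in both.

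A total of 16 genes rose with challenge in both genotypes, which is 80.0% of the 20 that rose in wild type and 76.2% of the 21 that rose in knockout. Over all 12648 genes tested, 3.77% rose in both, 28.2% of those that rose in wild type and 37.01% of those that rose in knockout, and these shares were set side by side without a test. They were 11 large subunit genes (Mrpl2, Mrpl12, Mrpl17, Mrpl18, Mrpl20, Mrpl23, Mrpl28, Mrpl33, Mrpl34, Mrpl37 and Mrpl52) and 5 small subunit genes (Mrps7, Mrps12, Mrps18c, Mrps24 and Mrps34). In wild type the challenged and untreated arrays overlapped for 0 of the 16, and in knockout for Mrpl34 alone. The 16 had been chosen by calls on the same values, and of all 477 genes that rose in both, 388 were without overlap in wild type and 445 in knockout. Of all tested genes, 11.6% and 16.1% were higher without overlap.

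Mrpl12 encodes the counterpart of the bacterial stalk protein at which translation factors dock. It read 8.57, 8.46, 8.86 and 8.73 in untreated wild type and 9.75, 10.14, 9.87 and 9.98 in challenged wild type. Untreated knockout arrays read 8.84, 8.91, 8.85 and 8.70, and challenged knockout arrays 9.85, 9.36, 10.02 and 9.89. No challenged array of either genotype overlapped an untreated one. The difference was 1.28 ± 0.14 (SE, 2.43-fold, limma adjusted p = 4.41e-05) in wild type and 0.95 ± 0.14 (1.94-fold, adjusted p = 0.000304) in knockout, and the interaction was not called (-0.33 ± 0.20, adjusted p = 0.255).

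Mrpl20, a counterpart of a bacterial protein that binds large subunit RNA early in assembly, rose by nearly the same amount in both genotypes. Its untreated values were 8.66, 8.30, 8.57 and 8.48 in wild type and 8.70, 8.82, 8.83 and 8.996 in knockout. The challenged values were 9.54, 9.32, 9.55 and 9.42 in wild type and 9.68, 9.76, 9.80 and 9.97 in knockout. The groups formed steps without overlap, from untreated wild type to challenged knockout. The challenge difference was 0.96 ± 0.11 (adjusted p = 4.64e-05) in wild type and 0.97 ± 0.11 (adjusted p = 5.13e-05) in knockout, and challenged knockout exceeded challenged wild type by 0.34 ± 0.11 (adjusted p = 0.0174). The untreated genotypes differed by a like 0.33 ± 0.11 that was not called (adjusted p = 1).

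Mrps34, a mitochondria-specific small subunit protein needed for the stability of that subunit in mice, read 8.86, 8.74, 9.24 and 8.84 in untreated and 9.74, 10.03, 9.70 and 9.89 in challenged wild type. Knockout arrays read 9.06, 9.34, 9.20 and 9.25 untreated and 9.94, 10.00, 10.07 and 9.84 challenged. All challenged arrays were above all untreated ones, by a difference of 0.92 ± 0.12 in wild type (adjusted p = 0.000105) and 0.75 ± 0.12 in knockout (adjusted p = 0.000545). Mrps7, the counterpart of a bacterial protein that organises the head of the small subunit, read 8.86, 8.88, 8.94 and 8.80 in untreated and 9.494, 9.445, 9.637 and 9.495 in challenged wild type. In knockout it read 8.99, 9.16, 8.99 and 8.96 untreated and 9.91, 9.80, 10.08 and 10.15 challenged. The differences were 0.65 ± 0.10 (adjusted p = 0.000281) and 0.96 ± 0.10 (adjusted p = 3.29e-05), on the brighter of its probes.

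Among the other large subunit genes that rose in both, Mrpl17 had a difference of 0.89 ± 0.13 in wild type and 0.69 ± 0.13 in knockout. Mrpl2, whose bacterial counterpart lies near the site of peptide bond formation, had 0.54 ± 0.10 and 0.83 ± 0.10. Mrpl23, a counterpart of a protein at the exit of the peptide tunnel, had 0.74 ± 0.14 and 0.65 ± 0.14. These 3 rose without overlap of challenged and untreated arrays in both genotypes. Mrpl28 had 0.64 ± 0.11 and 0.51 ± 0.11, and Mrpl18, whose bacterial counterpart binds the small RNA of the large subunit, 0.67 ± 0.13 and 0.58 ± 0.13. Mrpl34 had 0.69 ± 0.14 in wild type and 0.52 ± 0.14 in knockout, where challenged replicate 2 (7.92) lay below untreated replicate 2 (8.06) and the call was lost in 4 of 16 fits that each left out 1 array.

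In the small subunit, Mrps12, the counterpart of the decoding site protein in which bacterial streptomycin resistance arises, had differences of 0.64 ± 0.12 in wild type and 0.50 ± 0.12 in knockout. Mrps18c had 0.70 ± 0.12 and 0.38 ± 0.12, and Mrps24 0.47 ± 0.11 and 0.60 ± 0.11. The remaining large subunit genes that rose in both were Mrpl33 (0.40 ± 0.10 and 0.61 ± 0.10), Mrpl37 (0.38 ± 0.11 and 0.65 ± 0.11) and Mrpl52 (0.73 ± 0.14 and 0.49 ± 0.14). On these probes the adjusted p of the interaction ran from 0.135 for Mrps7 to 0.967 for Mrpl20 over the 16 genes. The other tested probes of Mrpl18 (0.19 in wild type and 0.35 in knockout), Mrpl33 (0.20 and 0.66) and Mrpl37 (0.09 and 0.09) were called in neither genotype. A second probe of Mrps7 behaved otherwise, as described with the interaction.

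**Figure D3:**
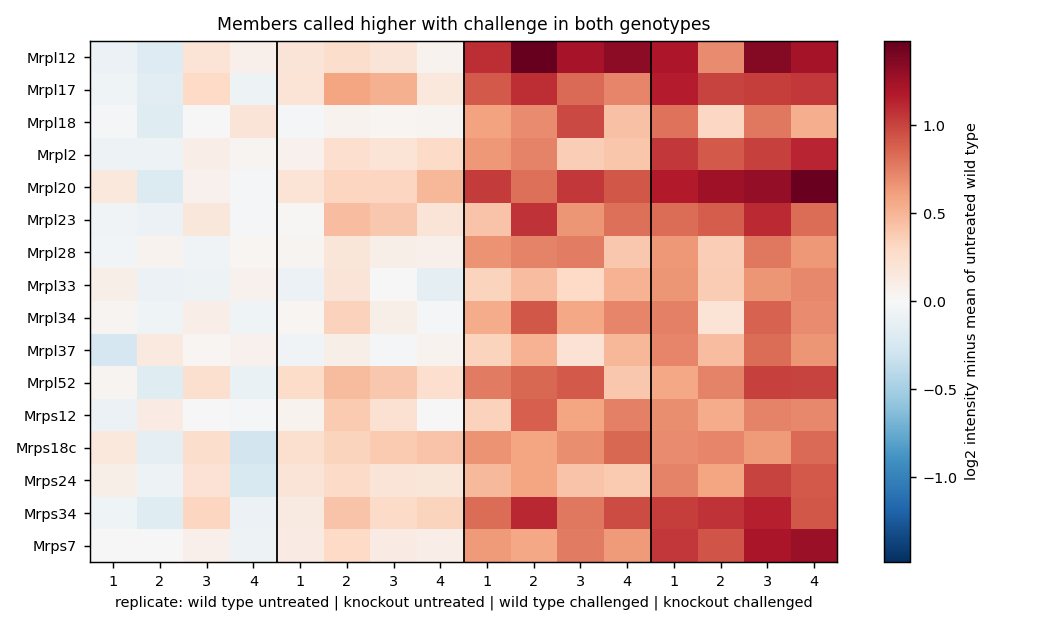
Log2 intensity minus the mean of untreated wild type for the 16 genes that rose in both challenge comparisons, by array; columns are replicates 1 to 4 of each group and colour runs from blue (lower) to red (higher). The genes were chosen by these calls, and challenged arrays of both genotypes are red throughout, including replicate 4 of challenged wild type, where Mrpl12 reads 9.98 against a mean of 8.66 in untreated wild type.

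Skeletal muscle markers moved with the challenge. The mean of 14 tested muscle genes was 9.10 ± 0.40 in untreated wild type, 9.27 ± 0.31 in untreated knockout, 10.44 ± 1.16 in challenged wild type and 11.57 ± 0.37 in challenged knockout. With challenge 9 of the 14 rose in wild type and 14 of 14 in knockout, and their summed intensity ran from 9011 to 20434, 13337 to 26364, 12481 to 76276 and 54988 to 83209 in those 4 groups. Of the 15 muscle genes on the array, Tnni1 alone was not tested. Lung markers fell for 1 of 7 genes in wild type and 5 of 7 in knockout. Replicate 3 of challenged wild type had a muscle mean of 8.93, inside the untreated wild type range of 8.51 to 9.37.

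When the muscle mean entered the fit as a covariate, 13 member probes rose and 1 fell with challenge in wild type, where 2.27% and 5.29% of all probes did. In knockout, where the untreated muscle means (8.97 to 9.70) and the challenged ones (11.03 to 11.86) did not overlap, 2 rose and 0 fell, where 0.393% and 0.168% of all did. Of the 11 genes that rose by at least 0.5 in both genotypes, 9 kept their call in wild type and 2, Mrpl20 and Mrps7, in knockout. Adding the covariate and leaving out replicate 4 of challenged wild type together, a setting chosen after seeing the data, gave 21 higher and 1 lower in wild type, where 4.85% and 6.62% of all probes were, and 10 higher and 3 lower in knockout, where 5.61% and 5.41% of all were. Markers of proliferating cells moved as well, 7 of 11 tested genes rising in each genotype, with summed intensities of 1615 to 2002.9 over untreated and 2502.2 to 3909.9 over challenged arrays. The part of proliferating cells in the member differences was not tested. The other marker lists also had rising members: in wild type and knockout, 5 and 5 of 12 cardiac muscle, 2 and 4 of 7 fat, 4 and 5 of 8 T cell, 3 and 5 of 7 B and plasma cell, 4 and 4 of 7 macrophage, and 2 and 1 of 3 eosinophil genes. Without replicate 4 of challenged wild type, the wild type counts were 7 for skeletal muscle, 3 for cardiac muscle, 4 for fat, 5 for B and plasma cell and 1 for eosinophil genes. Knockout counts were then 8 for cardiac muscle, 5 for fat, 7 for T cell, 6 for B and plasma cell, 5 for macrophage and 8 for proliferating cell genes. Of all 12648 genes tested, 2015 rose in knockout without that array, against 1289 with it. The part of these other marker lists was not tested either.

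A few genes moved in 1 genotype or in the other direction. Mrps14, the counterpart of a bacterial small subunit head protein, read 6.86, 7.15, 6.92 and 7.26 in untreated and 8.36, 7.81, 7.43 and 9.87 in challenged wild type. Knockout arrays read 6.77, 7.22, 6.84 and 6.95 untreated and 6.48, 6.26, 6.88 and 6.41 challenged. Challenged wild type lay above all other arrays and was widely spread, replicate 4 being highest. The wild type difference was 1.32 ± 0.36 (adjusted p = 0.0139), falling to 0.82 without replicate 4 (adjusted p = 0.00433). In knockout it was -0.44 ± 0.36 (adjusted p = 0.453).

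Mrpl42, a mitochondria-specific large subunit protein, had the largest rise of any member gene in knockout, at 1.27 ± 0.29 (2.40-fold, adjusted p = 0.00679). Its values there were 7.82, 8.04, 8.10 and 7.87 untreated and 9.57, 8.48, 9.62 and 9.22 challenged. In wild type they were 8.04, 7.90, 7.74 and 7.97 untreated and 8.77, 9.23, 8.33 and 7.54 challenged. Replicate 4 was below, and the other 3 above, all untreated wild type arrays, so the difference of 0.56 ± 0.29 was not called (adjusted p = 0.1499). With the muscle covariate the knockout difference was 0.41 (adjusted p = 0.730). Mrpl38, a mitochondria-specific protein, Mrpl16, whose counterpart supports the binding of transfer RNA, Mrps9, whose counterpart contacts transfer RNA, and Mrps25 also rose in knockout, by 0.78, 0.73, 0.72 and 0.49. The calls of the last 3 were lost in 5, 5 and 6 of the 16 fits that left out 1 array.

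In wild type 3 genes fell. Mrpl3, whose counterpart reaches into the peptidyl transferase centre, read 7.62, 7.54, 7.37 and 7.27 untreated and 6.57, 7.09, 6.81 and 6.45 challenged, without overlap, a difference of -0.72 ± 0.15 (adjusted p = 0.00255). The other tested probe of Mrpl3 differed by -0.27 and was not called. Mrps2 differed by -0.41 ± 0.12 (adjusted p = 0.0157), with 2 of 4 challenged arrays below the 40th percentile. Mrpl47 differed by -0.50 ± 0.18 (adjusted p = 0.0437), with overlapping groups. Its call was lost in 12 of 16 fits that left out 1 array, among them the fit without replicate 4 (-0.36, adjusted p = 0.103). The other tested probe of Mrpl47 differed by -0.09 and was not called.

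Promoters are shown for the member genes with the largest called challenge differences for which RefSeq (build GRCm38.p6) lists one. Each runs from 250 bases before the start to 50 after it, 5′ to 3′ on the gene's strand, and 67 of the 76 genes had at least 1, 73 promoters in all. Motifs were searched on both strands as exact letters: GCATGCGC for NRF1, CCGGAAG for ETS factors such as GABP, AAGATGGCG for YY1, GGGCGG for SP1, TATAAA for a TATA box and CACGTG for an E-box. Capitals mark matches, of which none overlapped another in the promoters printed.
Mrps14, chr1:160194965-160195264, plus strand: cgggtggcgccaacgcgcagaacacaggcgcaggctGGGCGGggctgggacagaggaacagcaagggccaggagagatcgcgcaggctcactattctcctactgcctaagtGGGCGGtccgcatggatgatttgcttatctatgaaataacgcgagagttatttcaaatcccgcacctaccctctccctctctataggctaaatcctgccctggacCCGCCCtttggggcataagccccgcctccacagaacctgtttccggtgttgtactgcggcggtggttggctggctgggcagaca
Mrpl12, chr11:120484387-120484686, plus strand: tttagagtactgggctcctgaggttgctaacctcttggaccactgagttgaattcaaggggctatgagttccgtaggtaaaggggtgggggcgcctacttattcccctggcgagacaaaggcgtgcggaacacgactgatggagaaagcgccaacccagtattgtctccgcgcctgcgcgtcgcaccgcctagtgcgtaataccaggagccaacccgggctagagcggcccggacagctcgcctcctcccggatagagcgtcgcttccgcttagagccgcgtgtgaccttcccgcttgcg
Mrpl42, chr10:95501900-95502199, minus strand: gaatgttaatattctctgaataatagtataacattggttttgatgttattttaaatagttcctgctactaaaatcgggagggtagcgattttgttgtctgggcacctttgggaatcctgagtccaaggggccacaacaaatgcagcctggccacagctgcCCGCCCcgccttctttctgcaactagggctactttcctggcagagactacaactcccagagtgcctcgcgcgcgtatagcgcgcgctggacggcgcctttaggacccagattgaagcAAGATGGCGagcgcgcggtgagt
Mrpl20, chr4:155802628-155802927, plus strand: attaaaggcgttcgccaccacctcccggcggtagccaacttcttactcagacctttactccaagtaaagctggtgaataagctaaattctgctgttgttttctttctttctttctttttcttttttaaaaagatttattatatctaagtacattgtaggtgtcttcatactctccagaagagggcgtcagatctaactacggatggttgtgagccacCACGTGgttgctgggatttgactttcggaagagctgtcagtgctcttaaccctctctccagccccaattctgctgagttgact
Mrps14 held 3 SP1 matches, at -214, -139 and -34 from the start. Mrpl42 held an SP1 match at -90 and a YY1 match at 27, and Mrpl20 an E-box at -33. Mrpl12 held 0 matches, which says only that these letters are not in this window.

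Over genes with a listed promoter, the ETS letters were found in 38.8% of 67 member genes and in 12.9% of 17491 protein-coding genes. The shares were 11.9% and 3.93% for NRF1, 11.9% and 2.14% for YY1, 50.7% and 49.2% for SP1, 7.46% and 14.8% for the TATA box, and 7.46% and 8.91% for the E-box. ETS matches occurred in 15 of 41 large and 11 of 26 small subunit genes, NRF1 matches in 7 and 1. After the values had been seen, the 15 genes with a promoter that rose in both challenges were set beside the 49 other tested genes. ETS letters were in 7 of 15 and 18 of 49, SP1 in 9 and 23, NRF1 in 2 and 5, YY1 in 2 and 5, the TATA box in 1 and 4, and the E-box in 4 and 1. The E-box was singled out of these 6 motifs for that reason, so the contrast is a description without a test. The 5 windows of 30 bases are printed with the E-box in capitals.
Mrpl2, chr17:46646078-46646107, plus strand: actgccgcccgtCACGTGacccgagcaacc
Mrpl20, chr4:155802833-155802862, plus strand: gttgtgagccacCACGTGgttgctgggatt
Mrpl37, chr4:107067011-107067040, minus strand: agcaagtttcttCACGTGtggcacttcaga
Mrps18c, chr5:100798584-100798613, plus strand: gcagccccgggtCACGTGacttccggcccg
Mrpl36, chr13:73330954-73330983, plus strand: cacacgtcatccCACGTGaccttacgccat
The first 4 belong to genes that rose in both genotypes. Mrpl36 had a difference of -0.26 in wild type and 0.05 in knockout, and neither was called.

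The second question was whether the genotype mattered before challenge. Between untreated knockout and untreated wild type lungs 0 of 96 member probes were called higher and 0 lower by limma, where 0.00561% and 0.0112% of all tested probes were. An unadjusted p under 0.05 was found for 5 of 96 member probes and for 327 of all 17810 tested probes. Called counts were likewise 0 with arrayWeights and with the replicate block. The median difference was 0.07 for large and 0.08 for small subunit probes and -0.00 for all probes, with 78.1% of member probes positive against 48.5% of all. Those with the smallest p in their subunits were Mrpl20 (0.33 ± 0.11), Mrpl17 (0.37 ± 0.13), Mrps18c (0.34 ± 0.12) and Mrps34 (0.29 ± 0.12), each with an adjusted p of 1.

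After challenge, knockout lungs differed from wild type lungs in 34 of 96 member probes, 26 higher and 8 lower, where 21.1% of all tested probes were higher and 23.1% lower. The share of member probes was thus 27.1% higher and 8.33% lower. The 26 higher include a Mrps25 probe that had passed the filter through challenged knockout alone. Large subunit probes were higher in 14 and lower in 6 cases, small subunit probes in 12 and 2. Median differences were 0.20 and 0.34, against 0.00 for all probes, and without replicate 4 of challenged wild type they were 0.15 and 0.14. The counts without it were 29 higher and 10 lower, where 19.5% and 21.7% of all were called. Chemosensory receptor probes, a gauge of signal from genes not active in lung, were lower in 379 and higher in 12 of 629 cases in the same comparison. Their array means ran from 6.48 to 7.10 in challenged wild type and from 6.14 to 6.28 in challenged knockout. With challenge in wild type, 109 of the 629 rose and 0 fell, with a median difference of 0.24. Of all tested probes, 11.7% rose and 17.7% fell there. In knockout 7 rose and 22 fell, with a median of -0.15, where 9.1% and 7.48% of all did. The part of chemosensory receptor probes in the member differences of these comparisons was not tested.

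Mrpl55, a mitochondria-specific large subunit protein, read 6.12, 6.55, 6.60 and 5.21 in challenged wild type and 7.51, 7.17, 7.30 and 7.46 in challenged knockout. Mrpl16 read 6.18, 6.57, 6.41 and 5.49 against 7.44, 7.24, 7.24 and 7.34. Knockout arrays were above all challenged wild type arrays for both genes, by 1.24 ± 0.25 (adjusted p = 0.00189) and 1.16 ± 0.22 (adjusted p = 0.00122). For both genes, replicates 1 and 4 of challenged wild type lay below the 40th percentile. Without replicate 4 the differences were 0.94 and 0.93, and both stayed called. Mrps30 read 8.79, 8.95, 8.73 and 7.48 against 9.34, 9.21, 9.56 and 9.41, a difference of 0.89 ± 0.23 (adjusted p = 0.00681) that was 0.56 without replicate 4 (adjusted p = 0.000592). Despite its symbol, its protein sits in the large subunit. Mrpl50 differed by 0.85 ± 0.26, and by 0.47 without that array.

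Mrpl47 (0.80 ± 0.18), Mrpl39 (0.71 ± 0.14), Mrpl3 (0.68 ± 0.15), Mrps9 (0.64 ± 0.21) and Mrps2 (0.58 ± 0.12) were also higher in challenged knockout. The other tested probe of Mrpl3 differed by 0.42 and was not called. Mrps9 differed by 0.38 without replicate 4 (adjusted p = 0.0321), and its call was lost without replicate 1 of challenged knockout (adjusted p = 0.0633), with the muscle covariate (adjusted p = 0.154) and on the 8 arrays alone (adjusted p = 0.108). The calls of Mrpl42 (0.75 ± 0.29, adjusted p = 0.0457) and Mrps11 (0.65 ± 0.24, adjusted p = 0.0385) were lost in 13 and 6 of the fits that left out 1 array. Without replicate 4 they differed by 0.44 (adjusted p = 0.127) and 0.38 (adjusted p = 0.09996). On the lower side, Mrps14 differed by -1.86 ± 0.36 (adjusted p = 0.00141), and by -1.36 without replicate 4. Mrpl58, which releases stalled peptides from transfer RNA, read 7.90, 8.16, 7.65 and 9.42 in challenged wild type and 7.24, 7.21, 7.46 and 7.51 in challenged knockout. The groups did not overlap, and the difference of -0.93 ± 0.26 (adjusted p = 0.0116) was -0.55 without replicate 4. Mrpl45, a mitochondria-specific protein at the tunnel exit known from mammals to face the inner membrane, read 6.61, 6.70, 6.58 and 6.68 against 6.11, 5.27, 6.31 and 6.26, a difference of -0.65 ± 0.17 (adjusted p = 0.00754). Its challenged knockout values at 6.11 and 5.27 lay below the 40th percentile.

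The interaction asks whether the challenge difference itself depended on genotype. Of 96 probes, 4 (4.17%) were higher in it and 2 (2.08%) lower, where 5.67% and 3.67% of all probes were. A Mrps25 probe among the 4 higher had passed the filter through challenged knockout alone, the group where it was high. Median interactions were 0.08 for large and 0.25 for small subunit probes, and 0.01 for all probes. Without replicate 4 of challenged wild type they were -0.00 and 0.07, with 6 higher and 4 lower, where 7.51% and 7.79% of all probes were. By gene, Mrpl3 (0.86 ± 0.21, adjusted p = 0.0258) and Mrpl39 (0.71 ± 0.20, adjusted p = 0.0412) were higher and Mrps14 lower (-1.76 ± 0.51, adjusted p = 0.0433). These calls were lost in 5, 11 and 11 of the 16 fits that left out 1 array. The other tested probe of Mrpl3 had an interaction of 0.55 and was not called. Mrpl39, related in sequence to a transfer RNA synthetase, read 6.505, 6.586, 6.18 and 6.23 in challenged wild type and 7.04, 6.95, 7.27 and 7.09 in challenged knockout. Neither of its challenge differences was called (-0.32 ± 0.14 in wild type, 0.39 ± 0.14 in knockout).

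Mrps25, a mitochondria-specific small subunit protein, had 3 tested probes, with interactions of 0.95 ± 0.14 (adjusted p = 0.00756), 0.87 ± 0.19 (adjusted p = 0.0194) and, for the brightest, 0.46 ± 0.20 (adjusted p = 0.132). The first reached the 40th percentile only in challenged knockout, on 4 of 4 arrays there and 0 of 12 elsewhere. It had therefore passed the filter through the group where it was high. Its calls in the knockout challenge, between challenged genotypes and in the interaction are kept in the counts above and support nothing. For the brightest probe the values were 6.83, 6.87, 6.99 and 6.33 in challenged wild type and 7.24, 7.11, 7.45 and 7.18 in challenged knockout, without overlap.

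The 2 probes of Mrps7 disagreed. The dimmer one read 8.37, 8.34, 8.40 and 8.28 in challenged wild type and 7.79, 7.37, 7.97 and 7.77 in challenged knockout, with an interaction of -0.57 ± 0.17 (adjusted p = 0.0486). Between challenged genotypes it was lower in knockout by -0.62 ± 0.12 (adjusted p = 0.00144), while the brighter probe was higher by 0.47 ± 0.10 (adjusted p = 0.00201). Both rose with challenge in wild type, the dimmer by 0.46 ± 0.12. Of the 20 genes with several tested probes, all probes had 1 sign for 15 genes in the wild type challenge, 17 in the knockout challenge and 15 between challenged genotypes. All probes had the same call for 13 of the 20 in each of these comparisons.

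**Figure D4:**
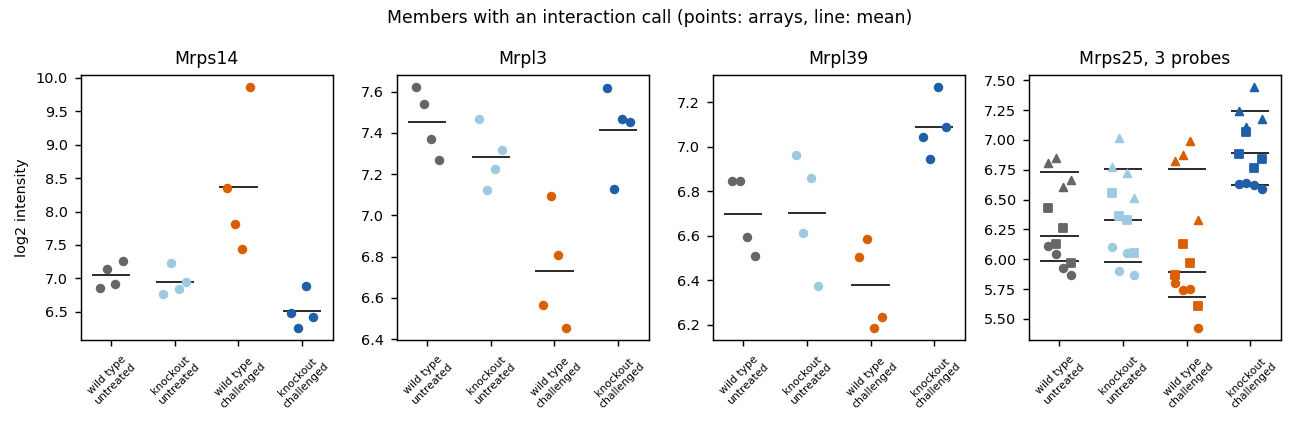
Log2 intensity by array for Mrps14, Mrpl3, Mrpl39 and the 3 tested probes of Mrps25 (one marker shape per probe); points are arrays and lines group means. Challenged wild type (orange) is highest for Mrps14, with replicate 4 at 9.87, and lowest in mean for Mrpl3, Mrpl39 and the lower probes of Mrps25.

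Replicate 4 of challenged wild type moved the small subunit medians most in the wild type challenge, between challenged genotypes and in the interaction. The large subunit medians of the first 2 were moved most by replicate 2 of challenged wild type, from 0.20 to 0.12 and from 0.20 to 0.28 without it. Per array, the large subunit mean minus the small subunit mean was -0.081 to 0.005 in untreated wild type and -0.075 to -0.055 in untreated knockout. It was -0.027, 0.024, 0.045 and 0.199 in challenged wild type and -0.070 to -0.037 in challenged knockout. Challenged wild type arrays thus lay highest on this measure, replicate 4 farthest, overlapping untreated wild type through replicate 1 alone. Counting Mrps18a and Mrps30 with the large subunit, where their proteins sit, changed the small subunit median from -0.04 to 0.01 in the wild type challenge and from 0.34 to 0.28 between challenged genotypes. Genes were also grouped by origin, a grouping made after the values were seen. With challenge in wild type, 15 of 43 genes with a bacterial counterpart and 5 of 29 mitochondria-specific genes rose. Of all genes tested, 13.4% rose there, and the medians of the 2 classes were 0.22 and 0.20. In knockout 15 of 43 and 6 of 29 rose, where 10.2% of all genes tested did. The class medians were 0.39 and 0.35.

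**Figure D5:**
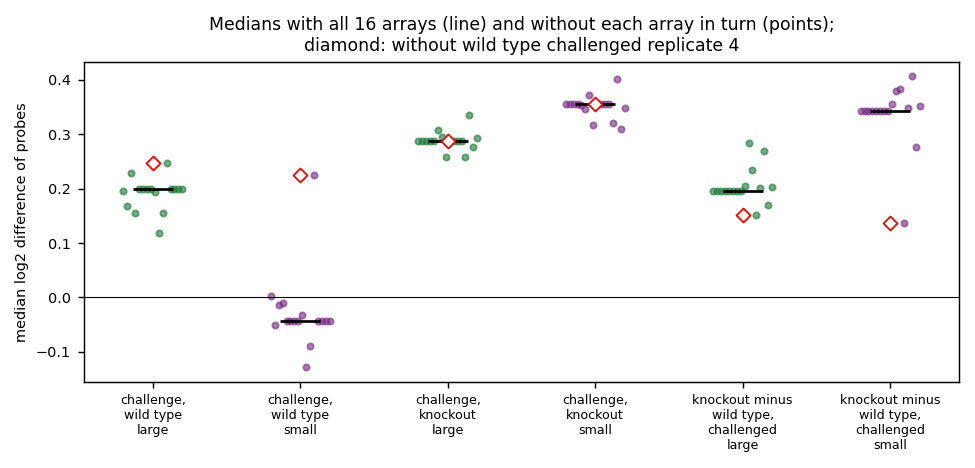
Median log2 difference of large (green) and small (purple) subunit probes in 3 comparisons; the black line uses all 16 arrays, each point leaves out 1 array, and the red diamond leaves out replicate 4 of challenged wild type. Without it the small subunit median goes from -0.04 to 0.22 in the wild type challenge and from 0.34 to 0.14 between challenged genotypes.

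Genes that serve the mitochondrial ribosome without bearing its symbols were read from lists made by function. Beside their counts, 13.4% of all 12648 genes tested rose and 17.4% fell with challenge in wild type. In knockout 10.2% of all genes rose and 7.88% fell. Of 3 tested ribosomal proteins under other names, Dap3, a small subunit GTP-binding protein also linked to cell death, rose in wild type (0.35 ± 0.10) and knockout (0.38 ± 0.10). Ptcd3, a small subunit RNA-binding protein, fell by 0.89 in wild type and had a positive interaction (1.20 ± 0.28, adjusted p = 0.0221). Among 13 translation factors, 1 rose and 2 fell with challenge in wild type, and 0 rose and 1 fell in knockout. In knockout 2 of the 13 had an unadjusted p under 0.05, where 3898 of all 12648 genes tested did. Gfm2, which helps recycle ribosomes, fell by 0.68 and Mtif3, an initiation factor, by 0.66 in wild type. Guf1, an elongation factor relative, differed by 0.28 in wild type and -0.38 in knockout, with an interaction of -0.66 ± 0.15 (adjusted p = 0.0172).

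Among 18 assembly factors, 3 rose and 2 fell in wild type and 1 rose in knockout, Noa1, a GTPase, rising in both (0.43 and 0.35). Among 14 mitochondrial aminoacyl-tRNA synthetases and related enzymes, which charge transfer RNA, 4 rose and 2 fell in wild type and 1 rose in knockout, Ears2 rising in both (0.48 in each). Among 17 genes of mitochondrial DNA transcription and replication, 1 rose and 6 fell in wild type, and 2 rose in knockout. Ssbp1, which binds single-stranded mitochondrial DNA, fell by 1.07, Tfb2m, a transcription factor of the mitochondrial polymerase, by 0.75 and Ppargc1a, a coactivator of mitochondrial biogenesis, by 0.69 in wild type. Slirp, which stabilises mitochondrial messages, rose in both genotypes (0.53 and 0.65). Between challenged genotypes 11 of these 17 were higher in knockout and 2 lower, with a median of 0.61 against -0.01 for all genes tested. Of all genes tested, 20.4% were higher and 24.3% lower. Without replicate 4 of challenged wild type 11 of the 17 were higher and 3 lower, with a median of 0.34 against -0.03. Of all 12648 genes, 2413 were then higher and 2847 lower. The medians of the 5 lists with challenge ran from -0.18 to 0.36 in wild type and from 0.07 to 0.38 in knockout. Without that array the wild type median was 0.18 rather than 0.36 for the synthetases and 0.31 rather than 0.09 for the 3 ribosomal proteins under other names, and Guf1 was not called in wild type (0.24, adjusted p = 0.0912). In knockout 6 genes of transcription and replication, 4 synthetases, 3 assembly factors and 2 translation factors then rose. Of all 12648 genes tested, 2015 rose in knockout without that array, against 1289 with it.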

How the data were processed

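Total RNA from lung was measured in 16 mice, 1 array each. The values are intensity per probe as deposited by the authors, on a linear scale, made with GenomeStudio 2011.1 per the submitters' processing notes. The normalization and the background treatment are not given in the sources used here. The annotation names 1 gene for 23978 of 25697 probes, several for 0, and does not list 1719. All 110 member probes matched RefSeq by gene ID.

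Intensities were raised to a floor of 16 (1123 of 411152 values, 4 of them members') and transformed to log2. The 17810 probes above their array's 40th percentile on at least 4 arrays entered 1 linear model of all 16 arrays (limma 3.58.1, R 4.3.3), in which each group had its own mean. Benjamini-Hochberg adjustment ran over all tested probes within each of the 5 contrasts, and the call threshold was 0.05. The p-values measure the spread between mice, and the number of arrays limits the precision. The fit was tested on simulated data.

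Alternatives covered the floor, quantile and cyclic loess normalization, the filter, eBayes with trend, array weights, the brightest probe of each gene alone, fits on 8 arrays, the replicate block, a skeletal muscle covariate, the subunit assignment and leaving out each array. Genes named were, per contrast and subunit, up to 6 called in each direction by size, those called in both challenges, those called in the interaction, and those whose probes were called in opposite directions. The members, lists and tests were chosen with earlier results of these data known. Promoters are RefSeq's on GRCm38.p6. No protein sequence was used here.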

Additional observations from a re-analysis of the deposited data

Results flagged for a closer look

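In all, 140 groups of 4 arrays were examined, for 33 named genes and for the array means of the large and small subunits. Of these, 5 held an array far from the other 3, where chance gives about 1 in 20 groups. All 5 were groups of named genes. Mrps7 read 9.16 in replicate 2 of untreated knockout, against 8.96 to 8.99 in the others. Mrps24 read 10.28 in the same array, against 10.17 to 10.19. In untreated wild type, Mrpl38 read 8.59 in replicate 2, against 8.72 to 8.74, and Mrps30 read 8.65 in replicate 4, against 8.74 to 8.75. Mrps30 read 7.48 in replicate 4 of challenged wild type, against 8.73 to 8.95, and that array also stood apart over all probes.

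The challenge difference depended on genotype, by the interaction term of the limma fit, for 6 member probes, 4.17% higher and 2.08% lower, below the 5.67% and 3.67% of all tested probes. It was larger in knockout for 2 Mrps25 probes (0.95 and 0.87), for Mrpl3 (0.86) and for Mrpl39 (0.71). The Mrps25 probe at 0.95 had passed the filter through challenged knockout alone, the group where it was high, so its value supports nothing. It was smaller in knockout for Mrps14 (-1.76) and for the dimmer Mrps7 probe (-0.57). The brightest Mrps25 probe (0.46, adjusted p = 0.132), the brighter Mrps7 probe (0.31, adjusted p = 0.135) and the other tested Mrpl3 probe (0.55) were not called.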

How the results depend on the processing

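No named called gene changed sign under any alternative run. The member counts below are given without the share of all probes called under the same setting. Calls over all genes also moved: of 12648 tested, 2015 rose in knockout without replicate 4 of challenged wild type, against 1289 with it. A changed member count is therefore not read here as a result about the members. In the wild type challenge, 23 probes rose with all settings as reported, 35 with cyclic loess and 13 with the skeletal muscle covariate, and leaving out 1 array gave 22 to 38. The 4 that fell became 1 with array weights, with the muscle covariate, on the 8 arrays alone, and with the covariate and without replicate 4 of challenged wild type, and 1 to 7 with 1 array left out. The large subunit median of 0.20 became 0.33 with cyclic loess. The small subunit median of -0.04 became 0.17 with cyclic loess, 0.23 with array weights and 0.15 with the covariate and without replicate 4, and -0.13 to 0.22 with 1 array left out. In the knockout challenge, the 26 that rose became 52 with array weights, 47 on the 8 arrays alone, 2 with the covariate and 10 with the covariate and without replicate 4. Leaving out 1 array gave 18 to 44. The count that fell, 0, became 2 with array weights, 2 on the 8 arrays alone and 3 with the covariate and without replicate 4. Between challenged genotypes, 26 higher became 15 with the covariate and 13 on the 8 arrays alone, and 8 lower became 2 on the 8 arrays alone. The small subunit median of 0.34 became 0.13 with array weights and 0.13 with the covariate and without replicate 4, and 0.14 to 0.41 with 1 array left out. In the interaction, 4 higher became 7 with cyclic loess, 8 with array weights and 2 with 1 probe per gene, and 1 to 8 with 1 array left out. The 2 lower became 1 with cyclic loess, no filter, the 60th percentile filter, 1 probe per gene, the covariate or the replicate block, 6 with array weights, and 4 with the covariate and without replicate 4, and 0 to 4 with 1 array left out. The small subunit interaction median of 0.25 became 0.0597 with the covariate and without replicate 4, and 0.0745 to 0.34 with 1 array left out. Replicate 4 of challenged wild type gave the highest count that rose in each challenge and the small subunit medians of 0.22, 0.136 and 0.0745. The 4 that fell in wild type became 1 without untreated wild type replicate 1, 2 without replicate 2 or 3, and 7 without challenged wild type replicate 2. The 4 higher in the interaction became 1 without untreated wild type replicate 1, 2 without untreated knockout replicate 2, 3 or 4 or challenged knockout replicate 1, and 8 without challenged wild type replicate 2 or 3. The 2 lower became 4 without challenged wild type replicate 3 or 4, 1 without challenged knockout replicate 2, and 0 without untreated wild type replicate 1, 2 or 3, any untreated knockout array, or challenged knockout replicate 1 or 4. The cause of these changes was not tested.

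With the replicate block, 23 rose and 4 fell in wild type and 25 rose and 0 fell in knockout. Of 24 pairs of arrays with the same replicate number, 6 had deviations correlated above 0.1 (median 0.0114, highest 0.319). The median over pairs with different numbers was -0.000731. These values do not settle whether the numbers pair some of the mice. The fit with the covariate and without replicate 4 was added after seeing the data. Dim probes limit what can be read: 73 of the 96 tested probes lay above the 40th percentile on all 16 arrays, and the rest did not.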
